A study of Drosophila melanogaster with 35 samples.

Results

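E2F1DP wings taken 36h after pupa formation were set beside control wings taken 12 hours earlier, at 24h, to ask what a plain delay of development would leave unexplained. The samples were chosen by their titles, 4 arrays of E2F1DP at 36h and 4 of control at 24h, out of 35 arrays in the series. Total RNA from 10 dissected Drosophila melanogaster wings per sample was hybridised to single-colour arrays, and the values are log2 intensities for 15473 transcripts. Control flies carried apterous-gal4 with UAS-GFP and the temperature-sensitive Gal80 repressor tubulin-Gal80temp.sens., and E2F1DP flies carried UAS-dE2F1 and UASdDP besides. Both were raised at 18 °C and moved to 28 °C, which stops the repressor and lets Gal4 act, at a time not given in the labels. The driver apterous-gal4 is active in the dorsal cell layer, so a wing also holds ventral cells that do not express the transgenes, and each value is an average over the whole wing. In such bulk samples fewer cells of a type and less RNA per cell cannot be told apart. Also used were control wings at the wandering larval stage (L3) and at 36h, E2F1DP wings at L3 and 24h, and Cbt wings, which carry UAS-Cabut, of the same ages.

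E2F1 and DP form a heterodimer that switches on genes for entry into the phase of DNA synthesis, and the retinoblastoma protein Rbf holds it back. Cells of the wing leave the cell cycle early in pupal life and then differentiate, growing wing hairs and laying down cuticle. A forced E2F signal in this tissue is known to delay that exit from the cell cycle.

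The files name features by FlyBase transcript ID alone, and 17 of them could be tied to a single gene. These 17 are named here. The genes for E2F1, DP, Cabut and markers of wing, muscle, blood, tracheal and nerve cells were not among them, so neither the transgenes nor the tissue could be checked. The control 24h arrays were the more uneven group, with a spread around the group mean (SD over all transcripts) of 0.395 to 0.655 against 0.312 to 0.409 for E2F1DP at 36h. Control 24h replicate 3 had the lowest median intensity of its group, 9.28, and control 24h replicate 4 the highest, 10.02, while the E2F1DP 36h medians lay between 9.70 and 9.77.

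Taken over all transcripts, E2F1DP wings at 36h were nearer to control wings at 24h than to those of their own age or to larval wings, and they differed from each. The root mean square difference from the control mean at 24h was 0.85, 0.74, 0.80 and 0.78 for E2F1DP replicates 1 to 4, in log2 units. Against the control mean at 36h it was 0.95, 0.91, 0.91 and 0.94, and the group averages were 0.79 ± 0.05 and 0.93 ± 0.02 (SD, n = 4). Every E2F1DP array was thus closer to the younger control, without overlap between both sets of values. Control 24h arrays differed from the mean of the other control 24h arrays by 0.70 ± 0.15 (SD, n = 4). The values were 0.53, 0.70, 0.88 and 0.68 for replicates 1 to 4. The E2F1DP values lie below that of replicate 3, the most uneven array of its group, and above those of the other control arrays. A mean that leaves an array out holds fewer arrays, so control and E2F1DP distances were not measured alike. The distances of E2F1DP 36h arrays from E2F1DP at 24h and from Cbt at 36h, 0.81 ± 0.09 and 0.84 ± 0.05, were of like size. The median absolute difference of a transcript did not follow this order, at 0.33 against control 24h and 0.27 against control 36h.

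A position between stages was read by projecting each array on the line from the control 24h mean, placed at 0, to the control 36h mean, placed at 1, with control arrays left out of their own mean. Transgenic arrays were set against the full control means, so both kinds were not treated alike. The left-out control arrays averaged 0.19 at 24h and 0.91 at 36h. Permutation p-values between transgenic and control arrays, here and on the line used next, are approximate for this reason. The E2F1DP 36h arrays stood at 0.35, 0.27, 0.35 and 0.27. The control 24h arrays stood at 0.16, 0.15, 0.11 and 0.34, so that replicate 4 overlapped with the E2F1DP arrays. The difference of 0.12 did not pass (two-sided exact permutation test, p = 0.0857, adjusted over 8 tests p = 0.114). Control arrays at 36h stood between 0.83 and 0.97, which put E2F1DP at 36h lower by 0.60, without overlap (mean difference -0.60, exact permutation p = 0.0286, the smallest that 4 against 4 arrays allow, adjusted p = 0.0457). Cbt arrays of the same age stood between 0.64 and 0.85, again above all E2F1DP arrays (difference -0.41, exact permutation, adjusted p = 0.0457). The difference from control 24h turned on single control arrays. It was 0.03 without control 24h replicate 1 and 0.06 without replicate 3 (exact permutation p = 0.686 and 0.343), and it was 0.14 without replicate 4, with no overlap left (p = 0.0286).

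On the earlier stretch of development the order was the other way. On the line from the control L3 mean, at 0, to the control 24h mean, at 1, the E2F1DP 36h arrays stood at 0.83, 0.80, 0.81 and 0.73 and the control 24h arrays at 0.95, 0.89, 0.92 and 0.88. All E2F1DP values were below all control values, by 0.12 on average (exact permutation p = 0.0286, not among the 8 adjusted tests). E2F1DP wings at 24h stood at 0.51 ± 0.04 on this line (SD, n = 4). The wings at 36h thus stood past E2F1DP wings at 24h and short of control 24h on this line, while on the later line their difference from control 24h passed or missed the threshold with the control arrays used.

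**Figure D1:**
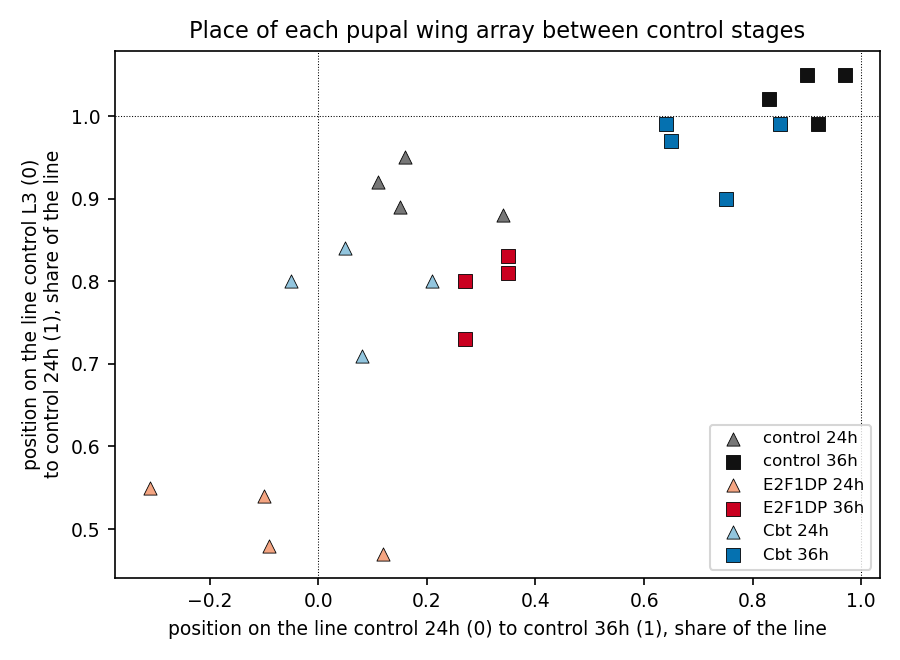
Each point is an array, placed on the line from control 24h (0) to control 36h (1) along the horizontal axis and on the line from control L3 (0) to control 24h (1) along the vertical axis, both as a share of the line. E2F1DP at 36h stands between 0.27 and 0.35 horizontally, next to control 24h, and between 0.73 and 0.83 vertically, below it.

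A transcript was called higher or lower when its Benjamini-Hochberg adjusted p in limma was below 0.05 over all 15473 transcripts. Between E2F1DP at 36h and control at 24h 2900 transcripts were called, 18.7% of those tested, with 1430 higher (9.24%) and 1470 lower (9.50%) in E2F1DP. A difference of at least 1 log2 unit, or 2-fold, was reached by 781 of the higher and 501 of the lower calls. A difference of at least 4 units was reached by 34 higher and 3 lower transcripts. Among the higher calls 125 had a control 24h mean in the dimmest 25% of transcripts, under 6.20, and among the lower calls 249 had an E2F1DP mean there, so the size of these differences is not exact. Side by side, 3656 transcripts (23.6%) were called against control at equal age and 3587 (23.2%) between the control stages themselves, contrasts that share arrays with this one. When only the groups of each contrast were modelled, which changes the spread and the degrees of freedom, the counts were 1974, 4109 and 2540. The arrays of E2F1DP at 36h and control at 24h did not overlap for 21.4% of all transcripts, with E2F1DP higher for 9.04% and lower for 12.4%. Arrays were grouped into slides by a number in their deposited names, taken here as the slide number, which the sample titles do not give. Leaving out slide 7 gave 1877 calls, of which 87.4% had the same sign on that slide. It was the 1 slide with both groups, where E2F1DP replicates 1 and 4 met control replicate 4. A model that also held the slide called 1932 transcripts.

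Among the 17 named genes, E2F1DP at 36h exceeded control at 24h for 5 and fell short of it for 2, and 10 did not pass, a share of calls to be read beside the 18.7% of all transcripts. Their median difference was 0.20, against -0.08 over all transcripts. The genes fell into several patterns, and they are described by the control stage that E2F1DP wings resembled.

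Fatp1, a fatty acid transport protein, stood near the control 24h level. It read 11.31, 11.53, 11.69 and 11.35 in the E2F1DP 36h arrays and 11.43, 10.87, 11.14 and 11.65 in the control 24h arrays. The ranges overlapped, and the difference was 0.20, with a 95% interval from -0.15 to 0.54 (limma adjusted p = 0.445). Control wings at 36h had risen to 13.78 ± 0.19 (SD, n = 4), and Cbt wings of that age had reached 13.27 ± 0.43 (difference E2F1DP minus Cbt -1.80, SE 0.17, adjusted p = 1.45e-09). Against control at L3 E2F1DP was higher, by 0.50 (adjusted p = 0.0222). On slide 7 alone the difference from control 24h was -0.32.

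CG16974 and alpha-Spec, the alpha chain of the spectrin membrane skeleton, also overlapped with control 24h. CG16974 differed from it by -0.05 (95% interval -0.35 to 0.24) while control at 36h was higher than E2F1DP, by 0.54 (E2F1DP minus control -0.54, adjusted p = 0.00514). For alpha-Spec the difference was 0.22 from control 24h (adjusted p = 0.47), or -0.24 on slide 7 alone, and -0.37 from control 36h (adjusted p = 0.221), so that it was told apart from neither age.

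NaPi-III and HDAC3 stood near the larval levels of control wings instead. NaPi-III, by its name a sodium-phosphate cotransporter, read 11.68, 11.93, 11.74 and 12.35 in E2F1DP at 36h and 8.25, 8.79, 6.42 and 9.02 in control at 24h. No arrays overlapped, and the difference was 3.81 (SE 0.40, limma adjusted p = 1.37e-08). Control wings had 12.11 ± 0.11 at L3 and 7.92 ± 0.80 at 36h (SD, n = 4), and the difference of E2F1DP at 36h from L3 was -0.19 (SE 0.40, adjusted p = 0.75). Its level in E2F1DP wings was thus far from that of the 24h control wing and not told apart from that of the control larval wing. E2F1DP wings themselves had 13.19 ± 0.04 at L3 (SD, n = 3) and 12.68 ± 0.21 at 24h (SD, n = 4). Their change from 24h to 36h was -0.76 (limma adjusted p = 0.216).

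HDAC3, a histone deacetylase of corepressor complexes, read 14.34, 14.31, 14.29 and 14.18 in E2F1DP at 36h and 13.69, 13.50, 13.71 and 13.68 in control at 24h. The groups were apart, by 0.63 (SE 0.11, limma adjusted p = 8.24e-05). Control wings held 14.18 ± 0.26 at L3 and 13.34 ± 0.09 at 36h (SD, n = 4), and the difference from L3 was 0.10 (95% interval -0.12 to 0.33). In Cbt wings at 36h NaPi-III and HDAC3 were lower than in E2F1DP, at 8.16 ± 0.81 and 13.56 ± 0.14 (E2F1DP minus Cbt 3.76 and 0.72, adjusted p = 1.31e-08 and 8.76e-06).

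For sle, a nucleolar protein, E2F1DP wings read 11.85, 11.39, 11.55 and 11.57, and control 24h wings 11.25, 10.94, 11.06 and 11.00. The arrays did not overlap, but the difference of 0.53 did not pass (SE 0.20, limma adjusted p = 0.0609, and between 0.0563 and 0.173 without any 1 of the 8 arrays). It did pass when only both groups were modelled (adjusted p = 0.0473) and without the dimmest 25% of transcripts (0.0487). The level had fallen from 12.41 ± 0.09 in E2F1DP wings at 24h (36h minus 24h -0.82, adjusted p = 0.00361), and control wings had 12.81 ± 0.18 at L3.

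Wdr24 and Uba1 were higher than in control at 24h, at levels that were not told apart from control at L3 or at 36h. Uba1, the enzyme that activates ubiquitin, read 14.32, 14.31, 14.39 and 14.19 against 13.48, 13.40, 13.59 and 13.90 in control at 24h, without overlap. The difference was 0.71 (SE 0.16, adjusted p = 0.00172), and on slide 7 alone it was 0.35. Control 36h had 13.99 ± 0.06 (difference 0.32, 95% interval -0.01 to 0.64) and control L3 14.12 ± 0.25 (0.18, -0.14 to 0.51). Wdr24, part of GATOR2, which acts in amino acid sensing, read 12.33, 12.53, 12.32 and 12.43 against 11.65, 11.54, 11.49 and 12.36. Control 24h replicate 4 lay within the E2F1DP range. The difference was 0.64 (SE 0.18, adjusted p = 0.0107), it was 0.02 on slide 7, where that replicate was the control, and its call ended when only both groups were modelled (adjusted p = 0.0817). Another GATOR2 gene, mio, did not pass, at -0.22 (adjusted p = 0.532).

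Dyrk3, a kinase of the DYRK family, stood near the control level of its own age. It read 13.14, 12.84, 12.44 and 13.01 in E2F1DP at 36h and 13.87, 14.08, 13.24 and 13.31 in control at 24h, with no overlap. The difference was -0.77 (SE 0.25, limma adjusted p = 0.0302), and on slide 7 alone it was -0.23. Control wings at 36h stood at 12.90 ± 0.41 (SD, n = 4), a difference of -0.05 (95% interval -0.56 to 0.47), and the difference from L3 did not pass either (-0.42, adjusted p = 0.206). The call against control 24h ended without control replicate 1 or 2 or E2F1DP replicate 2 or 3 (adjusted p = 0.087, 0.103, 0.0567 and 0.119) and when only both groups were modelled (0.0787).

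SuUR and fend stood outside all 3 control stages, in opposite directions. SuUR, which slows the replication of late-replicating chromatin in polytene cells, read 12.42, 12.33, 12.35 and 12.34 in E2F1DP at 36h and 10.41, 9.95, 8.67 and 10.68 in control at 24h. The E2F1DP arrays were nearly identical and far above every control array. The difference from control 24h was 2.43 (SE 0.25, limma adjusted p = 1.37e-08). Against L3, where control stood at 10.91 ± 0.26, it was 1.44 (adjusted p = 3.4e-05), and against 36h, at 10.83 ± 0.15, it was 1.52 (adjusted p = 2.19e-05). Cbt wings of the same age were lower than E2F1DP, at 10.57 ± 0.36 (E2F1DP minus Cbt 1.79, adjusted p = 2.53e-06). E2F1DP wings had 11.43 ± 0.04 at L3 (SD, n = 3) and 11.90 ± 0.31 at 24h (SD, n = 4). At 24h they were already above control 24h, by 1.97 (limma adjusted p = 3.8e-07), and the further change to 36h of 0.46 did not pass (0.245).

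The gene fend (forked end) encodes a membrane protein known from muscle innervation in the embryo. It read 7.78, 8.51, 8.40 and 8.86 in E2F1DP at 36h and 9.48, 10.07, 9.37 and 10.08 in control at 24h. All E2F1DP arrays were below all control arrays of any stage, with control at 10.52 ± 0.24 at L3 and 10.26 ± 0.49 at 36h (SD, n = 4). The differences were -1.36 from 24h (SE 0.24, limma adjusted p = 9.39e-05), -2.13 from L3 (2.03e-08) and -1.87 from 36h (3.22e-07). The level also fell from 24h to 36h within E2F1DP wings, by 0.92 (36h minus 24h -0.92, adjusted p = 0.00701), and Cbt wings at 36h had 10.73 ± 0.33.

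The remaining named genes did not pass against control 24h. LanA, the laminin alpha chain of basement membranes, read 10.64, 10.37, 11.07 and 10.83 against 10.78, 11.19, 11.31 and 11.87, with overlap. Its difference was -0.56 (95% interval -0.98 to -0.13, limma adjusted p = 0.0599), or -1.14 on slide 7 alone, and it passed without the dimmest 25% of transcripts (adjusted p = 0.048), without control replicate 1 (-0.73, adjusted p = 0.0177) or without E2F1DP replicate 3 (-0.67, 0.0388). The chromatin remodeller kis, the Cullin adaptor rdx of Hedgehog signalling, the replacement histone gene His4r and CG31178 had differences of 0.27, 0.12, 0.04 and 0.11 (adjusted p = 0.331, 0.575, 0.944 and 0.899). CG31178 was dim, at 6.23 ± 0.99 in E2F1DP and 6.11 ± 1.04 in control (SD, n = 4), with 1 high array in each group.

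**Figure D2:**
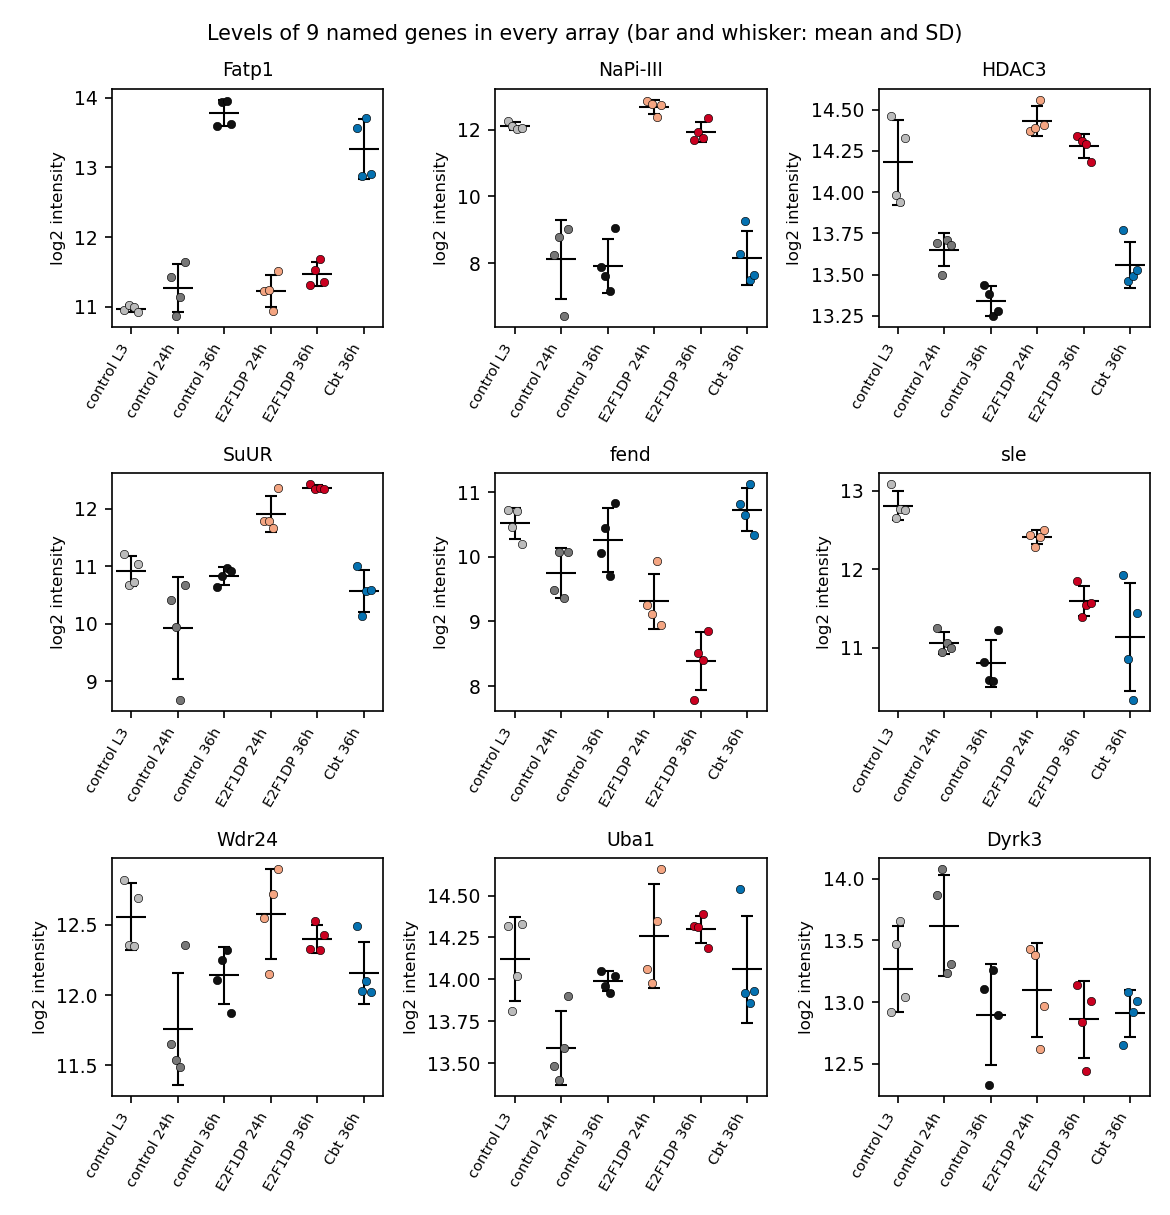
Log2 intensity of 9 named genes in every array of control at L3, 24h and 36h, E2F1DP at 24h and 36h, and Cbt at 36h, with the mean and SD as bar and whiskers; the vertical axes differ between genes. E2F1DP at 36h lies with control 24h for Fatp1, with control L3 for NaPi-III and HDAC3, with control 36h for Dyrk3, above every control array for SuUR and below every one for fend.

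A level above or below every sampled control stage cannot be given by moving along those stages, though a control peak or trough between them would not be seen. By this rule E2F1DP at 36h had to differ from control at L3, 24h and 36h in the same direction, with the largest of the 3 adjusted p-values below 0.05. It was met by 485 transcripts, 3.13% of all, of which 317 stood above (2.05%) and 168 below (1.09%). The 317 make up 22.2% of the 1430 higher calls against control 24h, and the 168 make up 11.4% of the 1470 lower calls. The other 1113 higher and 1302 lower calls were not shown to lie outside. As a description with no test, the E2F1DP mean lay between those of control 24h and L3, and not between those of 24h and 36h, for 444 of the 1430 higher calls and for 361 of the 1470 lower calls. It lay between those of control 24h and 36h, and not between those of 24h and L3, for 169 and 249. Both conditions held for 33 and 85, and for 784 and 775 the mean was beyond all 3 control means. The control 24h arrays that set the calls also set these places.

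Transcripts outside the control stages included flat and changing ones. Control means spanned less than 1 log2 unit over the 3 stages for 199 of the 317 above and 125 of the 168 below, and for 10127 of all 15473, so a narrow control range was not particular to them. The margin over the nearest control stage had a median of 0.84 above and -0.75 below. It reached at least 1 unit for 125 and 43 transcripts, and at least 2 units for 42 and 5. In 256 of the 317 and 121 of the 168, the E2F1DP 36h arrays did not overlap with any of the 12 control arrays. The same arrays chose these transcripts, so this describes them and adds no separate evidence. The share without such overlap over all transcripts was not computed. For 33 of the 317 all control means were in the dimmest 25%, so these were transcripts near the bottom of the scale in control wings at every stage sampled. A model that held the slide left 292 transcripts, and with array weights 782 did.

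**Figure D3:**
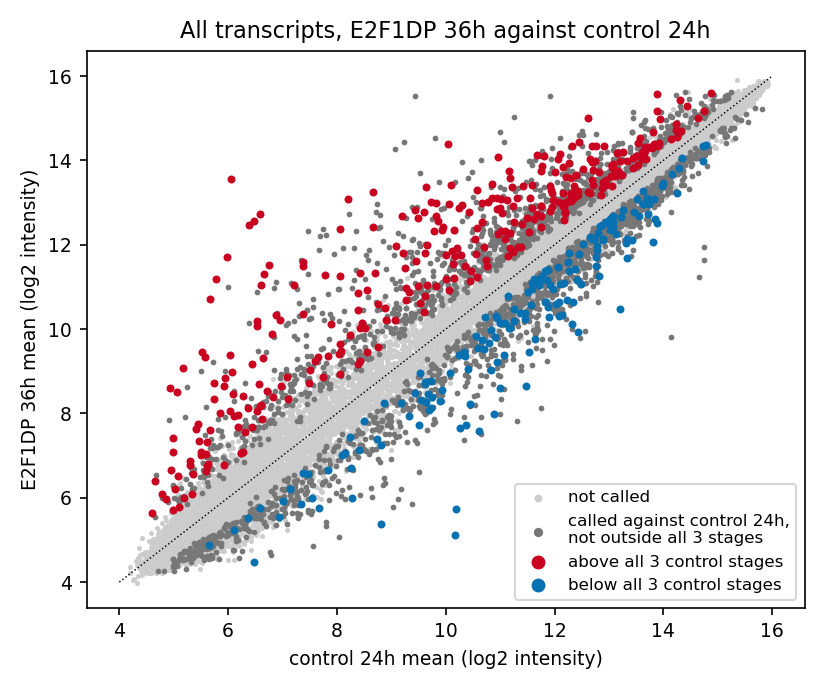
Mean log2 intensity of every transcript in E2F1DP at 36h (vertical axis) against control at 24h (horizontal axis), with the dotted line marking equal levels. The 317 transcripts above all 3 control stages and the 168 below are coloured, and the other calls against control 24h are dark grey.

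The 2 transcripts farthest above and the 2 farthest below the control stages have no gene name in the sources used here and are given by ID. FBtr0075697 read 12.35, 13.02, 13.05 and 12.53 in E2F1DP at 36h and 7.26, 5.66, 6.42 and 7.01 in control at 24h. It was low at every control stage, with 5.89 ± 0.50 at L3 and 5.60 ± 0.37 at 36h, and low in Cbt at 36h, with 6.05 ± 0.31 (SD, n = 4). The difference from control 24h was 6.15 (SE 0.27, limma adjusted p = 2.29e-16). It was already high in E2F1DP wings at 24h, at 11.46 ± 0.20, and rose further by 1.28 (adjusted p = 0.000994).

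FBtr0070922 behaved alike, at 12.44, 12.79, 12.84 and 12.19 in E2F1DP at 36h against 6.91, 6.14, 6.24 and 6.61 in control at 24h. The groups were far apart, by 6.09 (SE 0.35, limma adjusted p = 4.77e-14). The nearest control stage was 36h, at 6.86 ± 0.32 (SD, n = 4), a margin of 5.70.

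On the lower side FBtr0086025 read 8.42, 8.77, 8.87 and 8.54 in E2F1DP at 36h and 11.74, 11.49, 11.18 and 11.53 in control at 24h. The groups were apart by -2.83 (SE 0.24, limma adjusted p = 2.09e-10), and the margin to the nearest stage, control at 36h, was -2.37. Cbt wings at 36h were intermediate, at 9.72 ± 0.05 (SD, n = 4), still above E2F1DP (E2F1DP minus Cbt -1.06, adjusted p = 0.00118). Both lines were below control at L3 already, with E2F1DP at 7.06 ± 0.31 (SD, n = 3), Cbt at 9.31 ± 0.21 and control at 11.10 ± 0.13. At 24h E2F1DP had 8.83 ± 0.51 and Cbt 9.74 ± 0.52.

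FBtr0073468 read 5.11, 5.41, 5.70 and 5.33 in E2F1DP at 36h and 9.44, 7.08, 9.09 and 9.63 in control at 24h. The arrays did not overlap, and the E2F1DP level is among the dimmest, so the difference of -3.42 (SE 0.44, limma adjusted p = 6.66e-07) has no exact size. Cbt wings at 36h were as low, at 5.22 ± 0.21 (SD, n = 4), and differed from E2F1DP by 0.16 (95% interval -0.74 to 1.07, adjusted p = 0.875), so both transgene lines had low levels. The same held at the earlier ages. At L3 E2F1DP had 5.42 ± 0.37 (SD, n = 3), Cbt 5.87 ± 0.37 and control 8.20 ± 0.54. At 24h E2F1DP had 5.60 ± 1.10 and Cbt 5.52 ± 0.07. The low level was thus not particular to 36h.

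**Figure D4:**
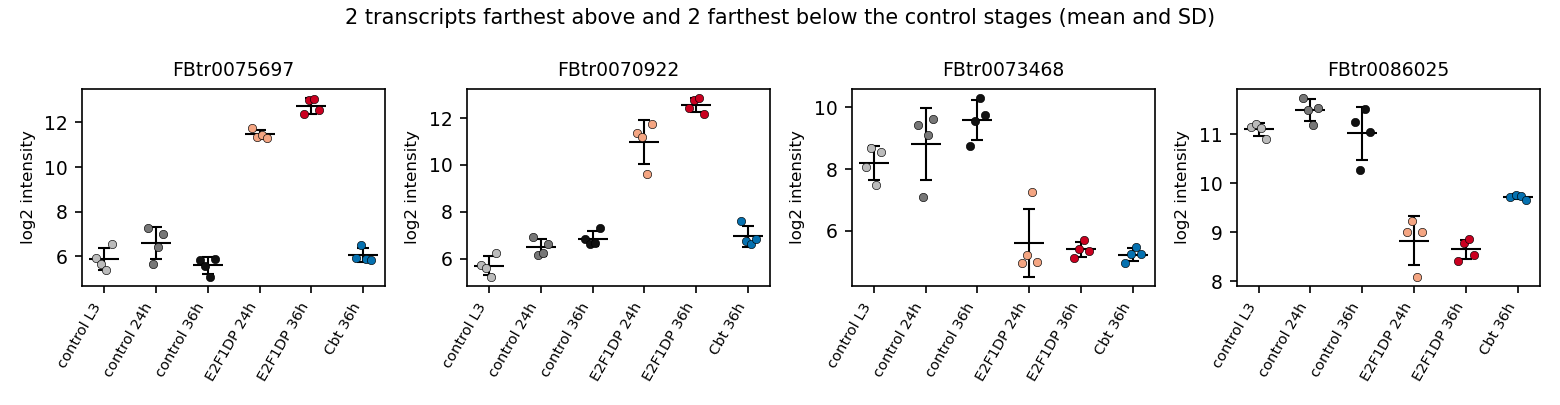
Log2 intensity of the 2 transcripts farthest above and the 2 farthest below the control stages, in every array of 6 groups, with mean and SD; the vertical axes differ. Of the groups plotted, the first and second panels are high in E2F1DP at 24h and 36h only, and the third is as low in Cbt at 36h as in E2F1DP.

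Whether these transcripts also differed between the transgene lines at other ages was read on groups whose means the rule did not use. These were E2F1DP against Cbt at 24h and at L3. Their arrays did enter the spread that the model fits to each transcript over all arrays. These calls and the rule are thus not independent. A level shared with Cbt is not called here, and a call can come from either line. The shares thus do not give how many transcripts already differed from control. FBtr0073468, for example, differed at 24h by -3.21 from control (limma adjusted p = 1.07e-06) and by 0.08 from Cbt (0.93). Of the 317 transcripts above all control stages at 36h, 203 (64%) were higher in E2F1DP than in Cbt at 24h and 8 were lower, where 8.91% of all transcripts were called higher and 14.5% lower. Of the 168 below, 93 (55.4%) were lower and 6 higher. Seen from the other list, the 203 are 14.7% of the 1378 transcripts higher at 24h, and the 93 are 4.16% of the 2237 lower ones. The median difference at 24h was 0.82 for those above and -0.60 for those below, against -0.04 over all transcripts. In larval wings, where 0.743% of all transcripts were called higher and 1.32% lower, 36 of the 317 were higher and 2 lower, and 22 of the 168 were lower, with median differences of 0.31 and -0.25 against 0.00 over all. Median centring of the arrays moved the shares at 24h to 77.7% above and 38% below, and quantile normalization moved them to 69.6% and 46.4%.

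The course of the later change was followed through transcripts chosen on Cbt wings. The means of those wings take no part in the contrasts described next, but their arrays enter the spread fitted to each transcript. On the line from control L3 to control 24h, Cbt wings at 24h stood at 0.79 ± 0.06 and control at 0.91 ± 0.03 (SD, n = 4). The Cbt list can thus also hold changes that control wings had made by 24h. For sle, Cbt fell from 24h to 36h by 0.89 (change -0.89, limma adjusted p = 0.00129), while control changed by -0.26 (0.372). From 24h to 36h 1279 transcripts rose in Cbt wings (8.27%) and 1958 fell (12.7%). Of the 1279 that rose, 870 (68%) also rose between the control stages, where 10.5% of all did, with a median change of 0.85 against -0.07 over all transcripts. In E2F1DP wings 646 (50.5%) rose over the same 12 hours, where 9.18% of all did, with a median change of 0.58 against -0.03 over all. Of these 1279, 206 (16.1%) were higher in E2F1DP at 36h than in control at 24h and 69 (5.39%) were lower, with a median difference of 0.16 against -0.08, beside 9.24% and 9.50% of all transcripts. Against control of equal age 733 (57.3%) were lower, where 11.3% of all were, with a median difference of -0.72 against -0.04. The median of these transcripts thus rose in E2F1DP wings, to a level near that of control at 24h. The median difference from control 24h depended on single arrays of that group, at 0.06 without replicate 2 and 0.27 without replicate 4.

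The 1958 transcripts that fell were less uniform. Between the control stages 1108 (56.6%) fell, where 12.7% of all did, with a median change of -0.63, and in E2F1DP wings 578 (29.5%) fell, where 6.73% of all did, with a median change of -0.37. In E2F1DP at 36h 393 (20.1%) were higher than in control at 24h and 413 (21.1%) were lower, with a median difference of -0.17. Calls in both directions were thus more frequent in this group than the 9.24% and 9.50% over all transcripts. The list was itself chosen by calls that use the same spread per transcript, and whether that raises these shares was not tested. Against control at 36h 876 (44.7%) were higher, where 12.3% of all were, with a median difference of 0.46.

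**Figure D5:**
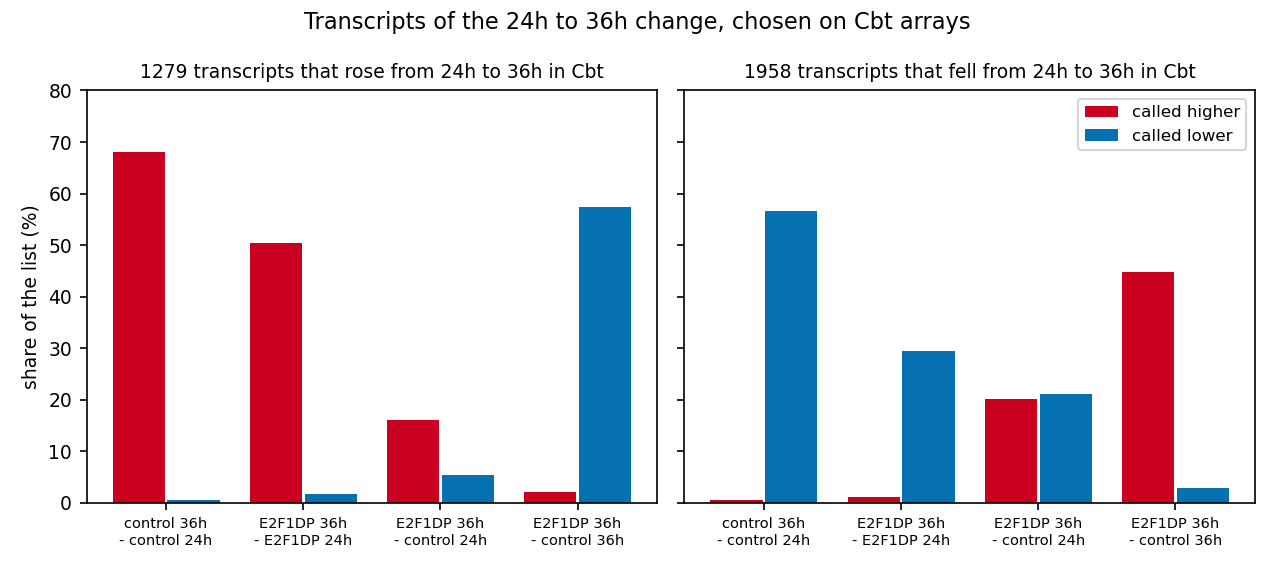
Share of the transcripts that rose (left) or fell (right) from 24h to 36h in Cbt wings that were called higher (red) or lower (blue) in each of 4 contrasts, in percent. The rising transcripts are called higher in 68% between control stages and in 16.1% between E2F1DP at 36h and control at 24h.

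A longer view used the control change from L3 to 36h, on groups whose means the comparison does not use. Their arrays do enter the spread fitted to each transcript. Of the 3732 transcripts that fell over this span (24.1%), 779 (20.9%) were higher in E2F1DP at 36h than in control at 24h and 449 (12%) were lower. They hold 54.5% of the 1430 higher and 30.5% of the 1470 lower calls. The 3320 that rose (21.5%) included 245 higher (7.38%) and 410 lower (12.3%) transcripts, which make up 17.1% and 27.9% of the calls. The background to set beside these percentages is 9.24% higher and 9.50% lower over all transcripts. Both lists were themselves called with that fitted spread, and whether this raises their shares in either direction was not tested. The median differences were -0.00 for those that fell and -0.04 for those that rose, against -0.08 over all transcripts, and members of either group were called in both directions.

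The same-age comparison with the other transgene line adds wings that carry the same driver. Between E2F1DP and Cbt at 36h 3634 transcripts were called (23.5%), with 1746 higher (11.3%) and 1888 lower (12.2%) in E2F1DP. Named genes were higher in 4 cases (NaPi-III, SuUR, HDAC3 and His4r) and lower in 3 (Fatp1, fend and CG16974). The difference for His4r was 0.94 (SE 0.31, limma adjusted p = 0.0253), at 11.20 ± 0.29 in E2F1DP and 10.27 ± 0.78 in Cbt (SD, n = 4). Uba1, Wdr24 and Dyrk3, which differed from control 24h, did not pass between the lines, with differences of 0.24 (95% interval -0.09 to 0.57), 0.24 (-0.12 to 0.61) and -0.06 (-0.57 to 0.45).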

How the data were processed

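Expression was measured on 35 arrays from 9 groups of 3 or 4. Per the submitters' processing notes the authors used RMA, a method that in general corrects background, evens out arrays and summarises probes. The array medians still ran from 9.25 (E2F1DP 24h replicate 3) to 10.02 (control 24h replicate 4), so the deposited values do not share a common distribution. They deposited linear intensity values per transcript in 1 file per array and the same values as log2 numbers in a series table (largest difference 5.0e-09). Version, settings and genome build are not given in the sources used here. Log2 values were analysed as deposited in R 4.3.3 with limma 3.58.1, with 9 group means fitted to all arrays (26 residual degrees of freedom), with Python 3.11.15 for figures. Precision is limited by the number of arrays. The labels call replicates independent without saying of what, so p-values measure the spread between samples, which may be technical. Of the IDs, 44 appeared among RefSeq synonyms (Release 6), 17 with 1 gene, and all 17 are named. The 2 transcripts each with the widest margin above and below all control stages are given by ID. None of the 104 entries of 11 gene lists matched (0 of 104), so no list was tested. Members and lists were chosen with earlier results of these data known. The tests were tried on simulated data.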

Additional observations from a re-analysis of the deposited data

Results flagged for a closer look

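Among 46 groups of 4 arrays, 5 held an array set apart from the other three by a Dixon test at the 95% level, where chance alone sets apart about 1 in 20. In E2F1DP at 36h these were alpha-Spec in replicate 1 (13.24), CG16974 in replicate 2 (13.09) and CG31178 in replicate 1 (7.70). In control at 24h they were HDAC3 in replicate 2 (13.50) and CG31178 in replicate 2 (7.68).

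E2F1DP and Cbt differed at 36h for 10 of the transcripts described, tested as E2F1DP minus Cbt in limma. These included 4 of the 17 named genes above Cbt and 3 below, where 11.3% and 12.2% of all transcripts were called. The rest were given by ID and chosen for their margins on the same E2F1DP 36h arrays. The changes of both lines from control 24h, which share the control arrays, are given side by side. E2F1DP was above Cbt for NaPi-III by 3.76 (changes of 3.81 in E2F1DP and 0.05 in Cbt), SuUR by 1.79 (2.43 and 0.64), HDAC3 by 0.72 (0.63 and -0.08) and FBtr0070922 by 5.61 (6.09 and 0.48). FBtr0075697 was above by 6.69 (6.15 and -0.54), a size that is not exact because its Cbt mean of 6.05 is among the dimmest 25%. For His4r the difference of 0.94 came with a change of 0.04 in E2F1DP (adjusted p = 0.944) and -0.90 in Cbt (adjusted p = 0.0321). E2F1DP was below Cbt for fend (difference -2.34), which was lower than control 24h in E2F1DP (-1.36) and higher in Cbt (0.98). It was also below for Fatp1 (-1.80, with changes of 0.20 and 1.99), CG16974 (-0.40, adjusted p = 0.0456, with changes of -0.05 and 0.34) and FBtr0086025 (-1.06, with changes of -2.83 and -1.77).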

How the results depend on the processing

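With the slide as a fixed term the calls numbered 1932 for E2F1DP at 36h against control 24h (2900 as reported), 292 outside all control stages (485) and 1999 between control stages (3587). A difference of at least 1 log2 unit left 1282 and 168 of the first and second. Array weights gave 782 outside the control stages. Added after the data were seen, leaving the 24h stage out of that rule gave 810, and without control 24h replicates 3 and 4 together 2193 were called and 452 stood outside. Leaving out 1 array at a time gave 2282 to 3105 calls against control 24h, 376 to 488 outside, 3109 to 3740 against Cbt, 3209 to 3767 against control 36h and 3145 to 3852 between control stages. The position relative to control 24h ranged from 0.03 to 0.14 in this way, passed without control 24h replicate 4 (exact permutation p = 0.0286), and was -0.12 on the line from L3 to 24h, which covers another span. Higher and lower calls were near balance, and which were more numerous changed: the share of higher calls against control 24h was 49.3%, 47.2% with median centring, 50.6% with quantile normalization and 57.5% without control 24h replicate 4, against Cbt it went from 48% to 50.3% with median centring, and against control 36h from 52.2% to 48.3%. Replicate numbers were not seen to pair the samples. Deviations of same-numbered arrays correlated at -0.30, -0.41, 0.21 and 0.17, and the largest correlation, 0.53, joined E2F1DP 36h replicate 1 and control 24h replicate 2. Deviations from a mean of 4 arrays depend on each other, so these values cannot settle pairing. With the replicate number as a block 3059, 517, 3728, 3762 and 3750 transcripts were called against control 24h, outside, against Cbt, against control 36h and between control stages. In that model sle passed (0.53, limma adjusted p = 0.0309). Differences of uncalled genes near 0 changed sign: CG31178 with the slide (-0.11), without replicate 3 of control 24h and of E2F1DP 24h (-0.04), without control 24h replicates 3 and 4 (-0.43) and over single left-out arrays (-0.38 to 0.63), His4r with median centring (-0.01) and over left-out arrays (-0.08 to 0.17), CG16974 over left-out arrays (-0.16 to 0.05), and rdx with the slide (-0.00). The cause of these shifts was not tested. Among the named genes' differences from control 24h, the calls that changed are those stated beside LanA, sle, Wdr24 and Dyrk3. Their differences from L3, 36h, Cbt and E2F1DP at 24h were not recomputed under the alternatives.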
